A study of Mus musculus with 4 samples.

Results

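The collagen genes described here are the 44 of 32285 mouse gene-expression features whose symbol has the form Col, number, a, number. They were counted in single cells of adult mouse colon and divided into 11 fibrillar members, 9 basement membrane members and 24 others. The study asked about junctional plakoglobin (gene Jup) in intestinal inflammation, with 4 conditions in mice of strain C57/BL6J: JUP-KO given DSS (dextran sulfate sodium, a chemical that injures the colon lining), untreated JUP-KO, wildtype given DSS, and untreated wildtype. The cells of each condition carried 1 hashtag antibody, were mixed, sorted as viable and captured together in 1 droplet library per batch, in 2 batches. The tags are named TG_DSS, TG_WT, Ctrl_DSS and Ctrl_WT, and no source used here ties a tag name to an antibody number. By name, TG_WT is untreated JUP-KO and Ctrl_DSS is wildtype given DSS. By the order of the antibody numbers these change places. In both readings TG_DSS is JUP-KO given DSS and Ctrl_WT is untreated wildtype, so groups are called by tag name throughout. The driver and cell type of the knockout, the DSS dose and time, the number of mice and whether the batches are separate mice were not given in the sources used here, so a p-value reflects only how much these sums vary, and that variation may be technical.

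Collagens are triple-helical proteins of the extracellular matrix. Fibrillar collagens (types I, III and V are the common ones in gut) assemble into the fibres of the lamina propria and submucosa, and are made mainly by fibroblasts. Type IV collagen forms the sheet-like network of basement membranes under epithelium and around vessels, and types XV and XVIII sit in or beside it. The remaining members include the beaded filaments of type VI, the short-chain network collagen VIII, collagens that attach to fibrils (types XII, XIV and XVI) and transmembrane collagens (types XIII and XXIII).

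Promoter sequences are shown for 6 members whose transcripts were found in different cells: Col3a1, Col5a3 and Col6a3 in fibroblasts, Col8a1 also in goblet cells, Col15a1 also in tuft cells and endothelium, and Col6a5 also in enteroendocrine cells. Each is the 250 bases before the RefSeq start (GRCm38.p6), written 5′ to 3′ on the strand of the gene, and none overlaps an annotated exon. Capitals mark 3 motifs on either strand: the TATA box TATAAA (reverse complement TTTATA), the CCAAT box (reverse complement ATTGG) and the GC box GGGCGG (reverse complement CCGCCC). The windows lie at chr1:45311288-45311537 on the plus strand for Col3a1, chr9:20815068-20815317 on the minus strand for Col5a3, chr1:90843972-90844221 on the minus strand for Col6a3, chr16:57754738-57754987 on the minus strand for Col8a1, chr4:47207762-47208011 on the plus strand for Col15a1 and chr9:105960644-105960893 on the minus strand for Col6a5.
Col3a1: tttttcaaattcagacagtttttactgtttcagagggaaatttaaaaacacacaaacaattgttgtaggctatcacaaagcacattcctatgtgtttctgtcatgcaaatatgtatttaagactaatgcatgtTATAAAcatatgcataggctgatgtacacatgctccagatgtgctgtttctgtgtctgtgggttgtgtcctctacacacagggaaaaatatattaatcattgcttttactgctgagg
Col5a3: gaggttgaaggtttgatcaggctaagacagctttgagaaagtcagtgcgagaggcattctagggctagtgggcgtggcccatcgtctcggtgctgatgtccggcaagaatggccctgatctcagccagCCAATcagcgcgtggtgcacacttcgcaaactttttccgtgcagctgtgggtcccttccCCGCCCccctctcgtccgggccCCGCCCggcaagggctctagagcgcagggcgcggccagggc
Col6a3: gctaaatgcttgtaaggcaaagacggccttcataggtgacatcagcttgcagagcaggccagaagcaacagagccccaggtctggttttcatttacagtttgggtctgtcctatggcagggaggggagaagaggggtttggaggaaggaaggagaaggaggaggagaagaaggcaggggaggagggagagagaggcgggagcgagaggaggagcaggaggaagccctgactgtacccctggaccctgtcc
Col8a1: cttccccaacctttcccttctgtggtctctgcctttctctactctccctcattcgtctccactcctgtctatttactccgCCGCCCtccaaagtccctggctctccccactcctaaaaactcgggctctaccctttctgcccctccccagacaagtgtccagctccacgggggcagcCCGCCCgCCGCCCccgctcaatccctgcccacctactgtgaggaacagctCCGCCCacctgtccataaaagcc
Col15a1: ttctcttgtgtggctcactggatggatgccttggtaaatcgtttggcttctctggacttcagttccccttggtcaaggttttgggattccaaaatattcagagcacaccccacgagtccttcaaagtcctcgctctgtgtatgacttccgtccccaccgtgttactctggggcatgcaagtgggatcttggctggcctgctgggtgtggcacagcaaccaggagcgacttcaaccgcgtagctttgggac
Col6a5: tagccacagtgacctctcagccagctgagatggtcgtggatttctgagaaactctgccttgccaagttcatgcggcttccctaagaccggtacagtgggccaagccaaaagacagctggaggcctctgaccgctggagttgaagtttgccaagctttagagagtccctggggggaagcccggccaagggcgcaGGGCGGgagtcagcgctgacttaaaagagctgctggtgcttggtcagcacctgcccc

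The Col3a1 window held 1 TATAAA. The Col5a3 window held 1 CCAAT and 2 copies of the GGGCGG motif, the Col8a1 window 4 copies of it and the Col6a5 window 1. None of these motifs was in the windows of Col6a3 and Col15a1, which says only that these letters are not in those windows. RefSeq windows were matched for 35 of the 44 members, some with more than 1 start, giving 38 windows. Of these, 5 (13.2%) held TATAAA, 13 (34.2%) CCAAT and 22 (57.9%) GGGCGG, on either strand. Among 32851 windows of the same length over all genes the shares were 12.4%, 33.9% and 32.7%. The starts of Col4a1 and Col4a2 lie 21 bases apart on opposite strands, and those of Col4a5 and Col4a6 1343 bases apart.

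The values are UMI counts, that is, captured transcript molecules read at the 3′ end. Batch 1 gave 7155 kept cells (median 12309 UMIs) and batch 2 gave 6471 (median 7091), and 14 cell barcodes were in both. Clusters named from marker genes that include no collagen gave 595 fibroblast-like cells (195 and 400 in batches 1 and 2), 43 endothelial-like cells (19 and 24) and 7662 epithelial-like cells. Fibroblast-like cells had 13 of 13 fibroblast markers detected, 1 of 11 pericyte and smooth muscle markers and 0 of 12 endothelial markers. No cluster was pericyte-like, muscle-like or glia-like. The epithelial-like cells comprised colonocyte-like (1926 and 1574), goblet-like (906 and 611), stem and transit-amplifying-like (1609 and 445), enteroendocrine-like (257 and 186) and tuft-like (97 and 51) cells. The protocol discarded the supernatant of a first incubation, and counts of cells are not proportions of the tissue. Levels are UMIs per 1000000 UMIs of a cell class (CPM), and are compared between cells for 1 gene or family, not between genes. Intervals are 95% and exact, and cover counting error only. Differences between cell classes are described without a test, since cells are not replicates.

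Fibrillar collagen was almost all in fibroblast-like cells. In batches 1 and 2 these cells held 97.4% and 98.6% of the fibrillar collagen UMIs (98.0% ± 0.821, SD, n = 2 batches), while making up 2.73% and 6.18% of the cells. The fibrillar sum was 5928 and 8147 CPM in fibroblast-like cells, 121 and 51.9 in endothelial-like cells, and 2.01 and 3.43 in epithelial-like cells. The UMIs of basement membrane collagen were more widely spread. Fibroblast-like cells held 74.8% and 90.8% of them, endothelial-like cells 5.83% and 2.46%, and epithelial-like cells 16.004% and 3.33%. Epithelial-like cells held 80.9% and 64.2% of all UMIs in kept cells. The basement membrane level was 901 and 1241 CPM in fibroblast-like cells, 1143 and 1731 in endothelial-like cells, and 3.47 and 2.63 in epithelial-like cells. Neutrophil-like cells had 3.31 and 5.93 CPM, near the epithelial level. The free RNA in empty droplets held 5.53 and 13.9 CPM of Col4a1 alone. Without 2 fibroblast sub-clusters that had epithelial or mesothelial markers (F5 and F6), the fibroblast basement membrane level was 1379 and 1407 CPM. This was above the endothelial value in batch 1 and below it in batch 2. Of the other collagens, fibroblast-like cells held 44.9% and 71.5% of the UMIs and epithelial-like cells 49.6% and 22.7%. The plot of UMI shares shows the same split, with the epithelial portion nearly absent from the fibrillar bars and largest in the bars of the other collagens.

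**Figure D1:**
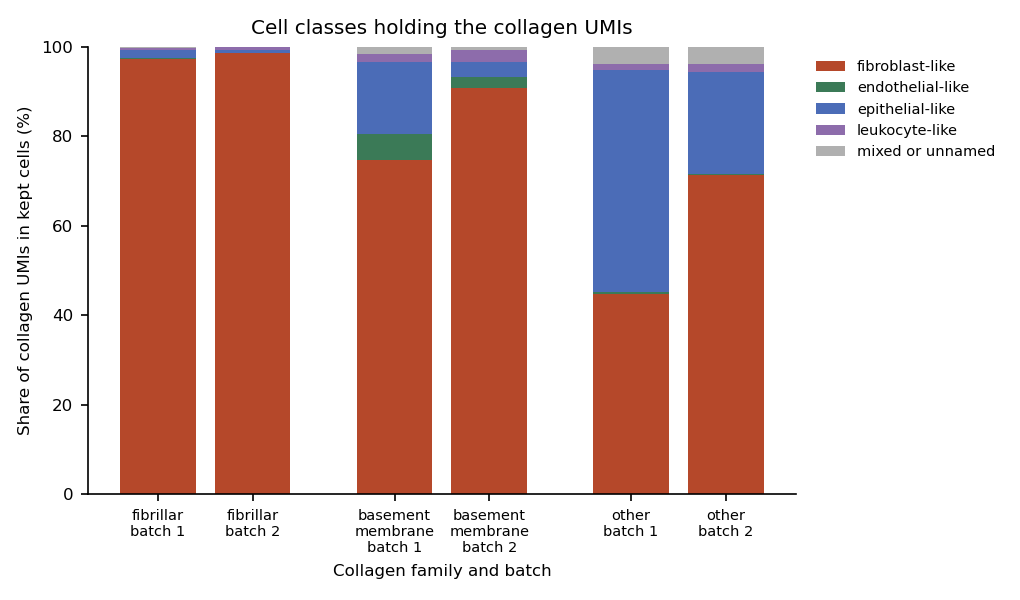
Share (%) of the UMIs of each collagen family held by each cell class in kept cells, 1 stacked bar per family and batch. Fibroblast-like cells hold 97.4% and 98.6% of fibrillar UMIs, and epithelial-like cells hold 49.6% and 22.7% of the UMIs of the other collagens.

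All 44 members had at least 1 UMI in the kept cells, and 20 had fewer than 100. Described by name are the 26 members with at least 10 CPM in both batches in a fibroblast, endothelial or epithelial class or a fibroblast sub-cluster (8 fibrillar, 7 basement membrane, 11 others). The other 18 reached at most 12.03 CPM in any such class and batch, and at most 19.9 CPM in a sub-cluster, that one from 1 UMI of Col8a2 in F6. Among them were Col2a1 and Col11a1, chains of cartilage collagens, with 1 and 2 UMIs in all cells.

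Among the fibrillar members, Col3a1, the chain of type III collagen, stood at 3209 CPM (interval 3122 to 3298) in batch 1 and 4636 (4559 to 4714) in batch 2 in fibroblast-like cells. The type I chains were at 871 and 1151 CPM (Col1a1) and at 1149 and 1546 CPM (Col1a2). Each of these 3 was higher in batch 2, but the batches differed in F5, a sub-cluster of the fibroblast-like cells that also had epithelial markers. F5 held 45.0% of the UMIs of all genes in fibroblast-like cells in batch 1 and 15.7% in batch 2. Without F5 and the small mesothelial sub-cluster F6, Col3a1 was at 4868 and 5378 CPM, Col1a1 at 1174 and 1330 CPM and Col1a2 at 1698 and 1776 CPM, and within F1 all 3 were higher in batch 1. The type V chains, which regulate fibril diameter, were at 199 and 286 CPM (Col5a1), 407 and 429 CPM (Col5a2) and 70.3 and 70.7 CPM (Col5a3). Col27a1 was at 18.7 and 25.3 CPM and Col24a1 at 3.74 and 2.02 CPM. Endothelial-like cells had no UMI of Col1a1 or Col1a2 in either batch, where the interval reaches 37.3 and 63.9 CPM, and Col3a1 was at 0 and 34.6 CPM (0 and 2 UMIs). Col5a2 had 9 and 1 UMIs there.

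Among the basement membrane members, Col4a1 and Col4a2, the chains of the ubiquitous type IV network, were counted in both stromal classes. Col4a1 was at 454 and 666 CPM in fibroblast-like cells and at 678 (525 to 861) and 935 (702 to 1220) CPM in endothelial-like cells. Col4a2 was at 229 and 316 CPM in fibroblast-like cells and at 314 and 485 CPM in endothelial-like cells. The endothelial values of Col4a1 rest on 67 and 54 UMIs. Without F5 and F6, the fibroblast sub-clusters with epithelial or mesothelial markers, Col4a1 was at 695 and 756 CPM and Col4a2 at 345 and 357 CPM in fibroblasts. The order of fibroblast and endothelial values then turned in batch 1 for both genes and stayed in batch 2. Exons of Col4a1 and Col4a2 overlap on opposite strands in the annotation. Col15a1, a proteoglycan collagen next to the basement membrane, was at 113 and 94.7 CPM in fibroblast-like cells and 121 and 190 CPM in endothelial-like cells, whose intervals (62.7 to 212 and 95.1 to 341) span most of that difference. Without F5 and F6 Col15a1 was at 181 and 107 CPM in fibroblasts. Col18a1, the precursor of endostatin, was at 64.1 and 113 CPM in fibroblast-like cells and at 0 and 86.5 CPM in endothelial-like cells. Col4a5 was at 26.8 and 32.7 CPM and Col4a6 at 8.09 and 12.8 CPM in fibroblast-like cells. Col4a3 reached 30.4 and 17.3 CPM in endothelial-like cells on 3 and 1 UMIs.

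Among the others, the type VI chains formed a fibroblast group. In batches 1 and 2, fibroblast-like cells had 360 and 402 CPM of Col6a1, 275 and 295 CPM of Col6a2, and 219 and 244 CPM of Col6a3. Endothelial-like cells had 0 UMIs of Col6a1 and Col6a2 and 2 and 1 UMIs of Col6a3. The fibril-associated Col14a1 was at 403 and 326 CPM, Col12a1 at 51.0 and 75.5 CPM and Col16a1 at 34.9 and 44.5 CPM in fibroblast-like cells. Col8a1 was at 69.1 and 59.6 CPM, Col6a5 at 13.1 and 29.3 CPM and Col28a1 at 14.3 and 9.09 CPM there. Col13a1 and Col23a1, the transmembrane members described by name, had another distribution between the stromal classes. Col13a1 was at 81.0 and 69.2 CPM in endothelial-like cells (8 and 4 UMIs), against 0 and 3.37 CPM in fibroblast-like cells. Col23a1 was at 20.2 and 86.5 CPM in endothelial-like cells (2 and 5 UMIs), against 1.87 and 8.42 CPM in fibroblast-like cells. Of all UMIs of these genes in kept cells, epithelial-like cells held 28.6% and 41.7% for Col13a1 and 60.7% and 32.9% for Col23a1.

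**Figure D2:**
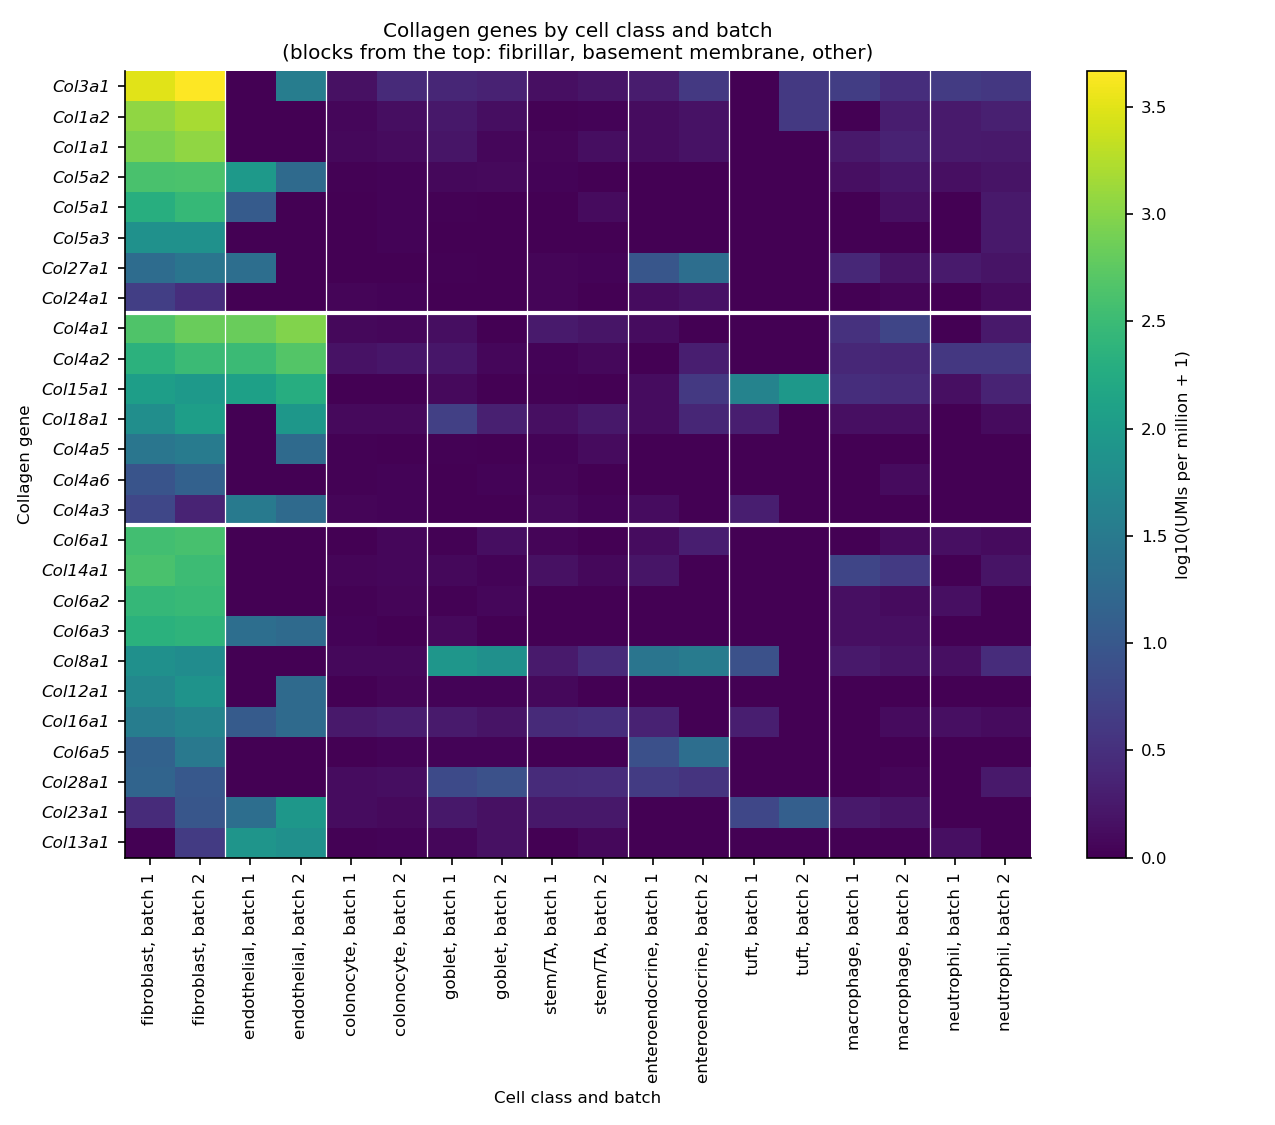
Levels of the 26 described collagen genes (rows) by cell class and batch (columns), as log10(CPM + 1), with blocks for fibrillar, basement membrane and other members. The fibroblast columns are bright for most rows, and Col4a1 reaches 678 and 935 CPM in endothelial-like cells. Col8a1, Col15a1, Col27a1 and Col6a5 are each higher in 1 or 2 epithelial subtypes than in the others.

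The fibroblast-like cells fell into 6 sub-clusters, numbered by size. F1 (155 cells) was led by Ccl19 and Hp, F2 (152) by Chrm3 and B3galt1, F3 (113) by Sbsn, Pi16, Igfbp6 and Cd55, and F4 (103) by Adamdec1 and Nrg1, with Bmp5 among its top genes. The 7 adventitial fibroblast markers summed to 11528 CPM in F3, against 3377 in F1, 4488 in F2 and 2180 in F4. F5 (62 cells) had 12 of 13 epithelial and 5 of 10 neutrophil markers detected and a median of 15766 UMIs, beside 3794 to 7219 in F1 to F4, and F6 (10 cells) had 5 of 5 mesothelial markers. The fibrillar sum was lowest in these last sub-clusters, at 2580 and 2096 CPM in F5 and 3157 and 2193 CPM in F6. It was 11335 and 9753 CPM in F1, 7794 and 9598 in F2, 5610 and 8226 in F3, and 10920 and 9526 in F4. Without F5 and F6 the fibrillar sum of fibroblast-like cells was 9095 CPM, beside 7037 CPM with them (means of 2 batches). The part of RNA from other cell types in the F5 levels was not tested.

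Among F1 to F4, F4 had a collagen profile of its own. Its basement membrane sum was 2241 and 2651 CPM, beside 1307 to 1523 CPM in F1 and F2 and 565 and 632 CPM in F3. Col18a1 was at 621 (481 to 788) and 788 (693 to 892) CPM in F4 and between 23.6 and 34.3 CPM in F1, F2 and F3 in both batches. The neighbouring type IV genes on the X chromosome were also high there, Col4a5 at 120 and 94.6 CPM and Col4a6 at 102 and 63.0 CPM, against at most 40.4 and 15.6 CPM in F1 to F3. Col12a1 was at 194 and 454 CPM in F4, Col27a1 at 130 and 97.7 CPM, Col6a5 at 111 and 72.5 CPM and Col24a1 at 27.8 and 15.8 CPM. The type VI chains Col6a1 (852 and 820 CPM) and Col6a2 (750 and 816 CPM) were higher in F4 than in F1 to F3 in each batch. Col14a1 ran the other way, at 167 and 91.4 CPM in F4, 257 and 224 in F1, 931 and 465 in F2, and 655 and 705 in F3. F3 had the lowest Col4a1 of F1 to F4, 283 and 329 CPM, and the lowest Col4a2, 89.6 and 139 CPM. Col8a1 was at 144 and 109 CPM in F2 and at 25.7 to 62.0 CPM in F1, F3 and F4. The mesothelial sub-cluster F6 (3 and 7 cells) had some of the same members. Col18a1 was at 193 and 120 CPM there, Col4a5 at 129 and 39.9 CPM and Col6a1 at 838 and 319 CPM. The sub-clusters were drawn without collagen genes, from the same cells, and these differences have no test.

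**Figure D3:**
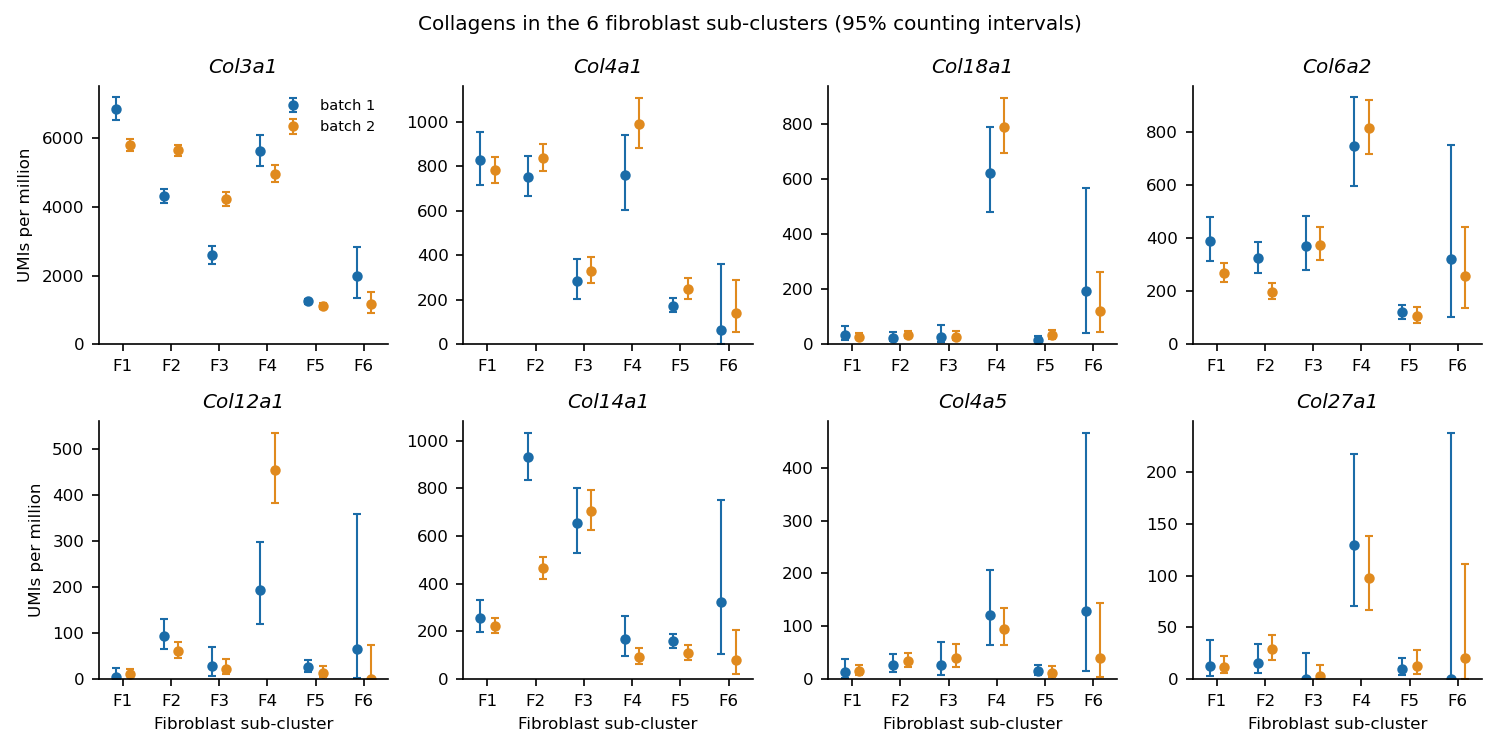
Levels (CPM) of 8 collagen genes in fibroblast sub-clusters F1 to F6, 1 point per batch with its 95% Poisson interval. Col18a1 stands at 621 and 788 in F4 against 23.6 to 34.3 in F1 to F3, while Col14a1 is highest in F2 and F3.

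Epithelial-like cells had little collagen apart from a few members, which were counted mainly in goblet-like, tuft-like or enteroendocrine-like cells. Col8a1, a short-chain collagen known from vessels and the cornea, was at 83.2 (79.2 to 87.3) and 67.3 (62.9 to 71.9) CPM in goblet-like cells. It was at 25.4 and 33.1 CPM in enteroendocrine-like cells, 6.9998 and 0 CPM in tuft-like cells (7 and 0 UMIs), 0.846 and 1.81 CPM in stem and transit-amplifying-like cells, and 0.202 and 0.2004 CPM in colonocyte-like cells. Goblet-like cells held 1662 of 1789 (92.9%) and 870 of 961 (90.5%) of the epithelial Col8a1 UMIs, while making up 18.9% and 21.3% of epithelial-like cells. The goblet-like class held 3 clusters, and Col8a1 differed among them: 92.4 and 77.3 CPM in the cluster of 945 cells, 174 and 192 CPM in one of 113 cells (led by Kcnma1 and 9030622O22Rik, with no goblet marker in its top 10), and 18.7 and 13.0 CPM in one of 459 cells. Of all Col8a1 UMIs in kept cells, epithelial-like cells held 89.6% and 72.9%, and fibroblast-like cells 5.56% and 13.4%. Col28a1, a von Willebrand factor A domain collagen, was also highest in goblet-like cells, at 5.66 and 7.12 CPM, with at most 3.33 CPM in the other subtypes. The contrast was smaller than for Col8a1, with 1.86 and 1.90 CPM in stem and transit-amplifying-like cells. The free RNA in empty droplets held 2.66 and 2.23 CPM of Col28a1.

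Col15a1 was counted in tuft-like cells, the chemosensory cells of the epithelium, at 42.0 (30.3 to 56.8) and 90.2 (60.8 to 129) CPM. Tuft-like cells held 42 of 50 (84.0%) and 30 of 36 (83.3%) of the epithelial Col15a1 UMIs with 2.02% and 1.78% of epithelial-like cells. In batch 2 the interval of tuft-like cells held the 94.7 CPM of fibroblast-like cells, and in batch 1 it lay below the 113 CPM of fibroblast-like cells. Col23a1 was at 4.9999 and 12.03 CPM in tuft-like cells on 5 and 4 UMIs. Col1a1, Col4a1, Col4a2 and Col6a1 to Col6a3 had no UMI in tuft-like cells, and Col3a1 and Col1a2 had 1 UMI each, in batch 2. The 10 neutrophil markers summed to 2384 and 10201 CPM in tuft-like cells, with 2 of 10 detected, while neutrophil-like cells themselves had Col15a1 at 0.413 and 1.35 CPM.

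Enteroendocrine-like cells, the hormone-secreting cells, held the fibrillar member Col27a1 at 8.47 (5.63 to 12.2) and 20.0 (14.3 to 27.3) CPM. The beaded-filament member Col6a5 was at 6.96 and 20.0 CPM there. In every other epithelial subtype Col27a1 was at most 0.113 CPM and Col6a5 at most 0.1001 CPM. In fibroblast-like cells the same genes were at 18.7 and 25.3 CPM (Col27a1) and 13.1 and 29.3 CPM (Col6a5), with the highest sub-cluster level of Col27a1 in F4. The neutrophil markers summed to 7241 and 26989 CPM in enteroendocrine-like cells, with 2 of 10 detected. Neutrophil-like cells themselves had Col27a1 at 0.826 and 0.539 CPM and no UMI of Col6a5. Col18a1 was at 4.00 and 1.08 CPM in goblet-like cells.

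**Figure D4:**
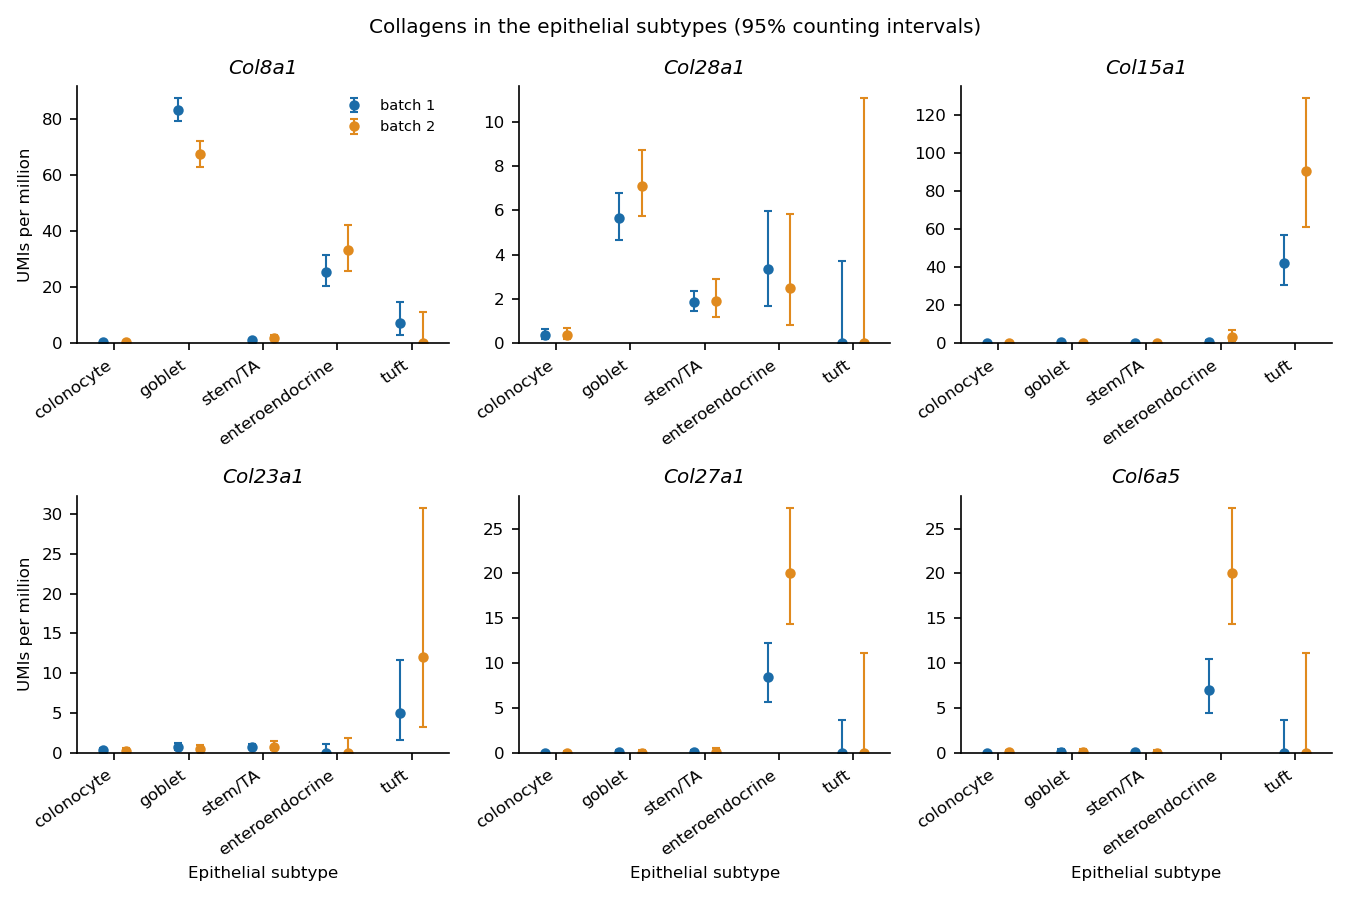
Levels (CPM) of 6 collagen genes in 5 epithelial subtypes, 1 point per batch with its 95% Poisson interval. Col8a1 is highest in goblet-like cells (83.2 and 67.3), Col15a1 in tuft-like cells (42.0 and 90.2), and Col27a1 and Col6a5 in enteroendocrine-like cells.

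Free RNA in droplets gives UMIs in cells that do not express a gene, and depth differed between classes. Each cell was therefore thinned to 2000 UMIs and shallower cells were left out. A Col3a1 UMI was then found in 92.4% (157 of 170) and 90.2% (296 of 328) of fibroblast-like cells, against 0.683% and 0.468% of neutrophil-like cells and 0.216% and 0.330% of colonocyte-like cells. Unthinned, the fibroblast shares were 94.4% and 95%, at median depths of 5969 and 5725 UMIs. Neutrophil-like cells, which should lack the gene, stood unthinned at 0.766% and 0.987%, with medians of 2602 and 3065 UMIs. Col3a1 made up 36.7 and 103 CPM of the free RNA in empty droplets, more than the 0.438 to 1.72 CPM of colonocyte-like cells.

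For Col8a1 the thinned share was 13.7% (117 of 851) and 10.7% (61 of 570) of goblet-like cells. It was 7.42% and 7.95% of enteroendocrine-like cells, 10.6% and 7.93% of fibroblast-like cells, and 0% and 0.351% of neutrophil-like cells (0 of 586 in batch 1, with an exact upper limit of 0.628%). No colonocyte-like cell of 1855 in batch 1 had a Col8a1 UMI after thinning, with an exact upper limit of 0.199% on cells with a UMI at that depth, and 0.0661% did in batch 2. Unthinned, the colonocyte-like shares were 0.208% and 0.318%. Unthinned, 38.5% and 31.4% of goblet-like cells had a Col8a1 UMI, at medians of 20926 and 19192 UMIs. The free RNA held 8.397 and 8.76 CPM of Col8a1, below the goblet-like level. Thinned Col15a1 was found in 15.1% (13 of 86) and 9.30% (4 of 43) of tuft-like cells, 20.6% and 18.3% of fibroblast-like cells, 0.171% and 0.234% of neutrophil-like cells and no colonocyte-like cell. Unthinned, the tuft-like shares were 25.8% and 43.1% at medians of 5815 and 4823 UMIs. Thinned Col27a1 was found in 1.75% (4 of 229, interval 0.478 to 4.41) and 3.41% (6 of 176, 1.26 to 7.27) of enteroendocrine-like cells. It was found in 0.171% and 0% of neutrophil-like cells and 0 colonocyte-like cells. Macrophage and monocyte-like cells had 0.610% (0.0739 to 2.19) and 0.221% (0.0267 to 0.794), and the batch 1 interval overlaps that of enteroendocrine-like cells. Thinned Col6a5 was found in 1.31% (3 of 229, 0.271 to 3.78) and 3.98% (7 of 176, 1.61 to 8.02) of enteroendocrine-like cells. No neutrophil-like cell had it, and these shares rest on few cells.

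Genes that act on collagen followed their own distributions. In fibroblast-like cells the folding and modification list (18 genes) was led by Ppib, a proline isomerase, at 676 and 737 CPM, Serpinh1, the collagen chaperone HSP47, at 534 and 824 CPM, and P4hb, a subunit of prolyl 4-hydroxylase, at 235 and 281 CPM. Serpinh1 was at 0.324 and 0.234 CPM in epithelial-like cells, while Ppib (596 and 611 CPM) and P4hb (215 and 252 CPM) were not low there. Mia3, which serves the export of bulky collagens from the endoplasmic reticulum, was at 205 and 261 CPM in goblet-like cells. Processing and cross-linking genes in fibroblast-like cells were led by Sparc (1767 and 2305 CPM), Pcolce (279 and 372 CPM) and the lysyl oxidase Loxl1 (154 and 283 CPM). The breakdown list was led by the inhibitors Timp2 (675 and 826 CPM) and Timp1 (435 and 395 CPM) and the protease Mmp3 (228 and 737 CPM). Basement membrane partners were led by nidogen 1 (Nid1, 301 and 391 CPM) and the laminin chains Lamc1 (252 and 263 CPM) and Lama2 (243 and 222 CPM). In endothelial-like cells the leading partners were the heparan sulfate proteoglycan Hspg2 (223 and 312 CPM) and Lama4 (172 and 277 CPM), followed by Nid1 (60.7 and 260 CPM). Among receptors, the integrin subunit Itgb1 was at 299 and 383 CPM in fibroblast-like, 405 and 467 in endothelial-like and 166 and 179 in epithelial-like cells. The discoidin receptor Ddr2 was at 220 and 260 CPM in fibroblast-like cells, while the epithelial-like cells had the integrin subunit Itga2 (51.0 and 45.1 CPM) and Ddr1 (32.7 and 36.9 CPM). The fibril-associated proteoglycan genes Dcn (7683 and 9631 CPM) and Lum (933 and 928 CPM) led their list in fibroblast-like cells.

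Hashtags divided the fibroblast-like cells too thinly for the intended test. Of batches 1 and 2, 2 and 10 fibroblast-like cells were labelled TG_DSS, 88 and 39 TG_WT, 1 and 8 Ctrl_DSS, and 1 and 4 Ctrl_WT, while 97 and 334 carried no called tag. In batch 2 the fibrillar sum was 2233 CPM (1982 to 2507) in cells labelled TG_DSS, 9056 (8745 to 9376) in TG_WT and 6811 (6061 to 7628) in Ctrl_DSS. In batch 1 it was 4519 CPM (4367 to 4675) in cells labelled TG_WT. The basement membrane sum in batch 2 was 420 CPM in TG_DSS, 1483 in TG_WT and 456 in Ctrl_DSS. The low TG_DSS sum came from 10 cells, of which 5 were in F5, the sub-cluster with epithelial markers, and 3 in F6, the mesothelial one. Of the TG_WT cells, 13 of 88 and 6 of 39 were in F5. The part of this mix in the difference was not tested. The TG_WT fibrillar sums of the 2 batches differed from each other by more than their counting intervals.

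Sums of at least 5 cells left no residual degree of freedom with batch as a block, so these values have no test. A fit of the 4 sums without the block has 1 residual degree of freedom and a lone sum for TG_DSS and for Ctrl_DSS, and its 0 calls among 5536 genes (0%) by edgeR's quasi-likelihood test say nothing about the fibroblast collagens. At an unadjusted p under 0.05 that fit had 294 genes for TG_DSS against TG_WT and 357 for TG_DSS against Ctrl_DSS. Endothelial-like cells labelled TG_DSS numbered 7 and 2, TG_WT 4 and 2, Ctrl_DSS 0 and 1, and Ctrl_WT 1 and 1, and no fit could be made. Their basement membrane sum was 863 and 2617 CPM in TG_DSS and 2829 and 618 CPM in TG_WT, in opposite order in the 2 batches.

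The epithelial-like cells could be tested, although 4475 of 4795 and 2551 of 2867 carried no called tag. The sums held 112 and 90 cells labelled TG_DSS, 138 and 137 TG_WT, 33 and 56 Ctrl_DSS, and 21 Ctrl_WT in batch 1, where batch 2 had only 3 Ctrl_WT cells and was not entered. Every comparison with Ctrl_WT, and the difference of differences, therefore rests on 1 Ctrl_WT sum, which is assumed to vary like the other tags. Jup, the targeted gene, was at 30.8 and 45.7 CPM in TG_DSS, 74.3 and 75.0 in TG_WT, 17.5 and 10.5 in Ctrl_DSS and 64.2 in Ctrl_WT. The lowest values were under Ctrl_DSS, a tag that reads as wildtype by name, and both TG_WT values stood above the 1 Ctrl_WT sum. This does not settle the reading. Of the 44 collagens, 4 passed the expression filter (Col8a1, Col3a1, Col27a1 and Col6a5), so nothing was tested for the other 40. Col8a1 was the 1 collagen called, lower with TG_DSS than with Ctrl_DSS, where 3.44% of all 11471 genes tested were called. In the other comparisons 0 of 4 were called by edgeR, and 0 by DESeq2. The shares of all genes called by edgeR were 0.166% for TG_DSS against Ctrl_WT, 0.0872% for TG_DSS against TG_WT, 0.131% for Ctrl_DSS against Ctrl_WT and 0.0697% for TG_WT against Ctrl_WT. For the difference of differences, (TG_DSS minus TG_WT) minus (Ctrl_DSS minus Ctrl_WT), the share was 0.0174%. Unadjusted p-values of the collagens are described only for the comparisons without Ctrl_WT. At an unadjusted p under 0.05 by edgeR's test, Col27a1 passed in TG_DSS against TG_WT. In TG_DSS against Ctrl_DSS, Col27a1, Col6a5 and the called Col8a1 passed. Col27a1 and Col6a5 passed the expression filter only through the TG tags, so their p-values are not taken as support. For Col8a1 the log2 fold change was 4.31 in Ctrl_DSS against Ctrl_WT and -4.39 in the difference of differences. Each rests on 1 Ctrl_WT sum, so only the size is given.

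Col8a1 was at 12.6 and 25.0 CPM (45 and 40 UMIs) in epithelial-like cells labelled TG_DSS, 26.6 and 10.2 CPM (73 and 30 UMIs) in TG_WT, 69.9 and 74.4 CPM (60 and 92 UMIs) in Ctrl_DSS and 3.67 CPM (2 UMIs) in Ctrl_WT. Both Ctrl_DSS values lay above all others, while the TG_DSS and TG_WT values overlapped and were in opposite order in the 2 batches. The log2 fold change of TG_DSS against Ctrl_DSS was -2.10 (SE 0.447, adjusted p = 0.0424 by edgeR's quasi-likelihood test, lower in 2 of 2 batches). The share of goblet-like cells, which hold most epithelial Col8a1, was also highest in Ctrl_DSS. It was 20.5% and 20.0% of epithelial-like cells labelled TG_DSS, 33.3% and 23.4% of TG_WT, 60.6% and 67.9% of Ctrl_DSS and 14.3% of Ctrl_WT. In batch 2 the share was higher in TG_WT than in TG_DSS, while Col8a1 was lower. The part of the goblet-like share in the Col8a1 difference was not tested. Within goblet-like cells alone Col8a1 was at 26.9 and 58.7 CPM in TG_DSS (23 and 18 cells), 66.2 and 30.4 in TG_WT (46 and 32 cells) and 123 and 112 in Ctrl_DSS (20 and 38 cells). The goblet-like cluster of 945 cells, which differs in Col8a1 from the other goblet-like clusters, held 78.3% and 55.6% of these cells in TG_DSS, 52.2% and 62.5% in TG_WT and 90% and 68.4% in Ctrl_DSS, and the part of this mix was not tested. The fit on goblet-like cells gave -1.59 (SE 0.429, adjusted p = 0.151 by the same test). The call was also lost without the batch block (0.172), with DESeq2 (0.0936), and without the Ctrl_DSS sum of batch 1 (0.161) or batch 2 (0.513), with the same direction in each.

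**Figure D5:**
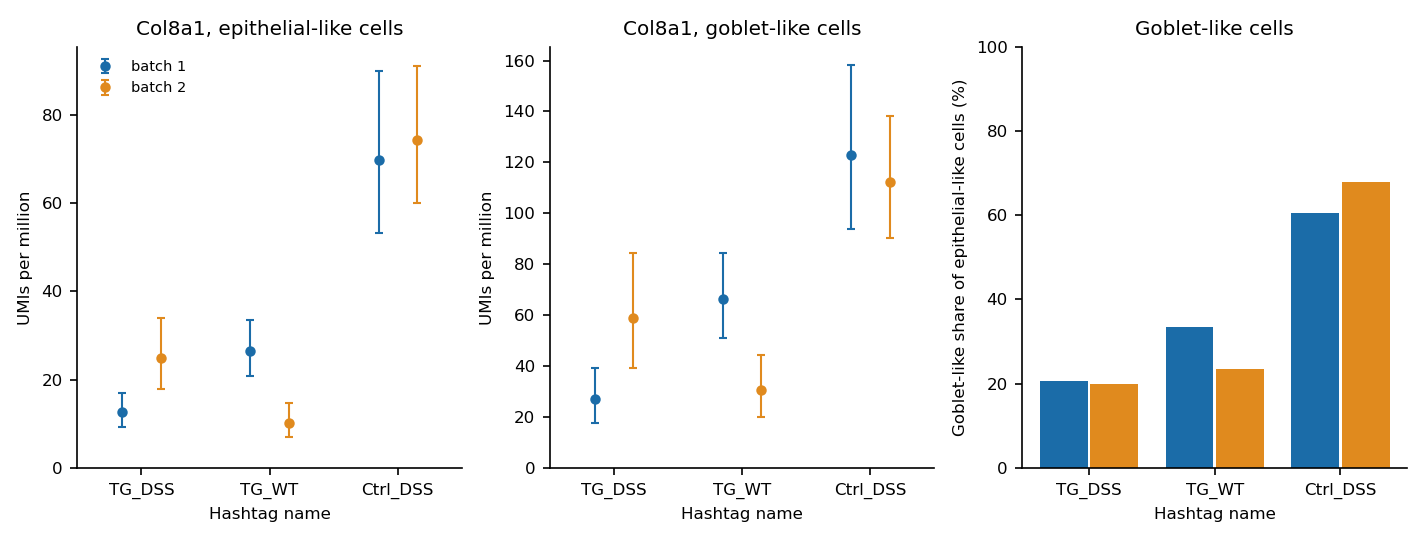
Col8a1 level (CPM) by hashtag name in epithelial-like cells (left) and in goblet-like cells alone (middle), 1 point per batch with its 95% Poisson interval, and the goblet-like share of epithelial-like cells (right). Ctrl_DSS is highest in all 3 panels, at 69.9 and 74.4 CPM, 123 and 112 CPM, and 60.6% and 67.9%; Ctrl_WT, with 21 cells in 1 batch, is not drawn.

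Col27a1 had 9 and 14 UMIs in epithelial-like cells labelled TG_DSS, 0 and 3 in TG_WT, 0 and 0 in Ctrl_DSS and 0 in Ctrl_WT. It was at 0 under both Ctrl tags and passed the expression filter only through the TG tags, so no fold is given, and the test of TG_DSS against Ctrl_DSS did not pass (adjusted p = 0.199 by edgeR's quasi-likelihood test). Of the TG_DSS UMIs, 9 and 13 were in enteroendocrine-like cells, 8 of them in 1 cell. Col6a5 had 6 and 10 UMIs in TG_DSS, 0 and 8 in TG_WT and none in Ctrl_DSS or Ctrl_WT, so it too passed the filter only through the TG tags (adjusted p = 0.281 by the same test). Enteroendocrine-like cells made up 28.6% and 31.1% of epithelial-like cells labelled TG_DSS, 5.07% and 18.2% of TG_WT, 0% and 1.79% of Ctrl_DSS and 0% of Ctrl_WT. Their part in these counts was not tested. Col3a1 had 3 and 2 UMIs in TG_DSS, 28 and 2 in TG_WT and 0 and 13 in Ctrl_DSS, with 23 of the 28 in 1 goblet-like cell and 10 of the 13 in 1 cell. Col15a1, below the filter, had 1 and 9 UMIs in TG_DSS, 5 and 2 in TG_WT and 0 and 5 in Ctrl_DSS.

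Of the partner lists, 5 genes were called for TG_DSS against Ctrl_DSS in epithelial-like cells, where 3.44% of all genes tested were called, and none in the other comparisons, by edgeR's quasi-likelihood test. The collagen prolyl 4-hydroxylase subunit P4ha1 was at 10.6 and 20.0 CPM in TG_DSS against 38.5 and 50.2 CPM in Ctrl_DSS (log2 fold change -1.67, SE 0.285, adjusted p = 0.0191). It was the 1 called of 10 tested in the folding list of 18 (beside 3.44% of all genes), whose median log2 fold change was -0.52, beside 0.02 over all genes tested. The matrix glycoprotein gene Thbs1 was at 112 and 171 CPM in TG_DSS against 36.1 and 51.8 CPM in Ctrl_DSS (log2 fold change 1.66, SE 0.327, adjusted p = 0.0323). Fibronectin (Fn1) had 17 and 33 UMIs in TG_DSS against 0 and 1 in Ctrl_DSS (adjusted p = 0.0444 by the same test). Fn1 passed the expression filter only through tags other than Ctrl_DSS, so its call is not taken as support for a difference. Thbs1 and Fn1 were the 2 called of 3 tested of the 10 fibril-associated genes (median 1.66), where 3.44% of all genes were called. The third, the proteoglycan gene Dcn, went the other way without passing, with 0 and 1 UMIs in TG_DSS against 0 and 76 in Ctrl_DSS, 52 of the 76 in 1 cell (unadjusted p = 0.0124, adjusted p = 0.152).

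In the breakdown list 2 of 6 tested (of 14) were called higher with TG_DSS, where 3.44% of all genes were called. The neutrophil collagenase Mmp8 was at 10.4 and 40.0 CPM against 0 UMIs in both Ctrl_DSS sums (adjusted p = 0.0341 by edgeR's quasi-likelihood test). The gelatinase Mmp9 was at 11.2 and 38.8 CPM against 0 UMIs (adjusted p = 0.0418 by the same test). Both passed the expression filter only through tags other than Ctrl_DSS, so no fold is given. For the same reason their calls are not taken as support for a difference. The list's median was 0.36. Mmp9 is itself one of the 10 neutrophil markers, whose sum in these epithelial-like cells was 8374 and 15739 CPM in TG_DSS, 150 and 6103 in TG_WT, 47.8 and 89.0 in Ctrl_DSS and 176 in Ctrl_WT. None of the 10 was at 0 in TG_DSS, and 3 and 2 were at 0 in Ctrl_DSS. Of the TG_DSS UMIs, enteroendocrine-like cells held 27 of 37 and 56 of 64 for Mmp8, and 183 of 399 and 181 of 274 for Thbs1. The part of neutrophil RNA and of the subtype mix in the Mmp8, Mmp9, Fn1 and Thbs1 calls was not tested. No gene was called among 6 tested receptors (median 0.31) or 6 tested basement membrane partners (median -0.15), and none of the 13 processing and cross-linking genes passed the filter. At an unadjusted p under 0.05, 1 receptor was higher and 1 lower, 1 basement membrane partner was higher and 4 folding genes were lower, P4ha1 included. All 5 calls were lost without the batch block (adjusted p from 0.172 to 0.344) and without either Ctrl_DSS sum (0.105 to 0.127 without batch 1, 0.343 to 0.599 without batch 2), and held in the other 5 refits that left out 1 sum. Their direction held in all refits. DESeq2 did not keep the calls of P4ha1, Mmp8, Mmp9 and Fn1, and kept that of Thbs1. Over all settings other than leaving out 1 sum, the calls held in 6 of 11 for P4ha1 and 5 of 11 for Thbs1. They held in 5 of 10 for Fn1, 6 of 9 for Mmp8 and 4 of 9 for Mmp9. With looser tag thresholds and in goblet-like cells, both chosen after seeing the data, the Thbs1 call was lost (0.108 and 0.213).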

How the data were processed

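The deposited values were raw UMI counts per gene and per hashtag antibody for all barcodes of 2 batches. The authors made them with Cell Ranger 7.0.0 on mm10, per the submitters' processing notes. The annotation release and the handling of intronic reads were not given in the sources used here. All 44 members were found in GENCODE M21 of that build, and 13 have an exon that overlaps another gene, where counts could be split.

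Cells were barcodes above 0.1 of the 99th percentile of the 14000 richest, or with at least 500 UMIs and a profile apart from that of barcodes with at most 100 UMIs (10000 draws, adjusted p at most 0.01). Of these, 13626 had 250 or more genes and no more than 25% of UMIs from mitochondrial genes, and were kept. Tag thresholds came from a 2-component mixture with a shared variance on log counts, which is strict: 4607 cells had exactly 1 tag, 5230 and 3163 had none, and 100 and 526 had several and left the comparisons as doublets. No other doublet caller was run. Clustering used scanpy 1.11.5 (2000 variable genes without collagens, 30 components, 15 neighbours) and leidenalg 0.10.2 at resolution 1.0, or 0.5 within fibroblasts. Clusters with epithelial and neutrophil markers together (459 and 159 cells) were kept apart.

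Sums of UMI counts over the cells of 1 class, tag and batch (at least 5 cells) were fitted over all genes with edgeR 4.0.16 in R 4.3.3 (quasi-likelihood test, TMM, expression filter, tag plus batch, Benjamini-Hochberg at 0.05). Per the labels, a batch number marks a shared library, so batch was the block and pairs the sums. DESeq2 1.42.0 and the other settings of the closing section were alternatives. The members, gene lists and naming rules were chosen with earlier results of these data known. The rule names members with at least 10 CPM in both batches of a class or sub-cluster, or called, and of each partner list the called genes or leading genes by level. The test was checked on simulated data.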

Additional observations from a re-analysis of the deposited data

How the results depend on the processing

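Of the main levels, shares and counts recomputed, 111 stayed within the replicate spread or within 1.5 times the count, and 43 did not. Of the remaining values, which include the log2 fold changes of the called genes, 77 stayed and 3 moved. A further 42 kept their direction but lost the call. No log2 fold change of a called gene changed direction. The order of the fibroblast and endothelial basement membrane levels did turn in batch 1 without F5 and F6. The fibrillar level of fibroblast-like cells (mean 7037 CPM) was 9144 with a per-cell marker gate, 8932 without cells with UMIs of another class's markers and 9095 without F5 and F6 (chosen after seeing the data). Their basement membrane level was 1380, 1493 and 1393 under the same settings. The level of the other collagens was 1903, 2029 and 1910, 1530 at 10% mitochondrial UMIs and 1125 in tagged cells only. In endothelial-like cells the gate gave 26.6 (fibrillar), 2077 (basement membrane) and 252 CPM (other), and the other collagens were at 0 without cells with UMIs of another class's markers. In epithelial-like cells the 3 levels were 7.9957, 3.99 and 36.7 in tagged cells only, basement membrane 3.75 and other 19.8 without cells with fibroblast marker UMIs, and other 15.5 with the gate. The gate put 79.6% of fibrillar and 66.8% of basement membrane UMIs in fibroblast-like cells, since it left cells of that class out. The cause of the other shifts was not tested. The 1 collagen called for TG_DSS against Ctrl_DSS became 0 without the replicate block, with DESeq2, with the gate, without cells with fibroblast marker UMIs, with looser tag thresholds and in goblet-like cells only (the last 2 chosen after seeing the data), and 2 with no filter (Col27a1 added). Leaving out 1 sum gave 0 to 1. Ctrl_DSS against Ctrl_WT (0) gave 1 with no filter and with the highest-tag rule, and 0 to 1 leaving out 1 sum, each time Col8a1. The difference of differences (0) gave 2 with no filter and 0 to 1 leaving out 1 sum. TG_DSS against TG_WT (0) gave 0 to 1, with Col3a1 called without the TG_WT sum of batch 2. For Col8a1 the direction held in all 18 refits, from -2.84 to -1.30, with adjusted p from 9.3e-11 to 0.676. It was called in 5 of 7 refits that left out 1 sum and in 5 of 11 others. Calls over all genes for TG_DSS against Ctrl_DSS (395) numbered 1 without the replicate block, 254 with DESeq2, 1018 with no filter, 120 without cells with fibroblast marker UMIs, 4 with the gate, 63 in goblet-like cells and 1 to 924 leaving out 1 sum. Over all settings they ranged from 0 to 482 for TG_DSS against Ctrl_WT (19), 0 to 447 for TG_DSS against TG_WT (10), 0 to 533 for Ctrl_DSS against Ctrl_WT (15), 0 to 166 for TG_WT against Ctrl_WT (8) and 0 to 352 for the difference of differences (2). A replicate left out leaves a lone sum that is assumed to vary like the other tags. Depth limits endothelial-like cells most (19 and 24 cells, median 2251 UMIs).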

Other observations

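Cells with no called tag entered no comparison. Their fibroblast-like cells (97 and 334 in batches 1 and 2) had a fibrillar sum of 8595 and 8577 CPM and a basement membrane sum of 1254 and 1299 CPM. Untagged goblet-like cells (804 and 518) had Col8a1 at 83.8 (79.5 to 88.3) and 68.3 (63.4 to 73.4) CPM, below the 123 and 112 CPM of goblet-like cells labelled Ctrl_DSS and above the 26.9 and 58.7 CPM of those labelled TG_DSS. The clusters with epithelial and neutrophil markers together had Col8a1 at 9.90 and 20.7 CPM. Among leukocytes, the T, NK and innate lymphoid-like cells had a fibrillar sum of 1.62 CPM in batch 1 and 44.1 CPM in batch 2. The batch 2 value came from 57 UMIs, and only 1.53% of its 326 cells had a Col3a1 UMI, so it rests on few cells. Neutrophil-like cells had 6.61 and 8.08 CPM and macrophage and monocyte-like cells 7.95 and 7.58 CPM.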
